A study of Mus musculus with 20 samples.

Results

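The 8 genes described here, Fasl, Tnfsf10, Fas, Tnfrsf10b, Casp8, Cflar, Bid and Ripk3, encode death ligands, their receptors and the proteins that relay the signal. They were chosen by symbol among the 54309 genes of the count table, and all 8 were among the 19567 genes that passed the low-count filter. RNA was sequenced from tumors of SCCVII, a murine head and neck cancer cell line injected under the skin of the flank of immunocompetent C3H/HeOuJ mice. The 20 libraries formed 10 treatment groups of 2 libraries each, A and B. One group was the control and 3 received a single agent: APG-157, a botanical drug made from turmeric (Curcuma longa) and given in the food, or a checkpoint antibody, anti-PD-1 or anti-CTLA-4, injected intraperitoneally. In 3 further groups the agents were given in pairs, called the APG/PD-1, APG/CTLA-4 and PD-1/CTLA-4 pairs here, and in the triple combination all of them were given. The last 2 groups received an anti-CD8 antibody, which depletes CD8+ T cells, either alone or with the drugs of the APG/CTLA-4 pair. The latter group is called the anti-CD8 combination. The paper describes the depletion as an experiment with its own control and its own arm given APG-157 and anti-CTLA-4. Which experiment the control and APG/CTLA-4 libraries came from was not stated. A difference between experiments in the comparisons with anti-CD8 was not tested. All tumors came from the same cell line, and mouse age was not given in the sources used here. Whether A and B came from separate animals was not stated, and the spread between them, on which the p-values of the group comparisons rest, may be technical.

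Cytotoxic T cells and natural killer cells kill in part by presenting Fas ligand (Fasl) or TRAIL (Tnfsf10) to the receptors Fas and DR5 (Tnfrsf10b) on a target cell. A ligated receptor recruits an adaptor and caspase-8 (Casp8), whose activation is restrained by c-FLIP (Cflar). Active caspase-8 cleaves Bid, which carries the signal to the mitochondria, and when caspase-8 is blocked the kinase Ripk3 can start necroptosis instead. In a whole tumor the ligands come mainly from lymphocytes and other immune cells, whereas the receptors and relay proteins are made by many cell types. In bulk samples such as these, a change in the number of cells of a type and a change of RNA per cell cannot be told apart.

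The promoters of the 3 genes that followed the cytotoxic cell markers are shown here, because those markers moved together with interferon gamma response genes and the motifs bound after interferon signaling can be looked for in them. Each sequence is the 250 bases before the RefSeq gene start (build GRCm38.p6), and capitals mark the motif TTCNNNGAA, known as the gamma-activated sequence.
Fasl, chr1:161788496-161788745, minus strand: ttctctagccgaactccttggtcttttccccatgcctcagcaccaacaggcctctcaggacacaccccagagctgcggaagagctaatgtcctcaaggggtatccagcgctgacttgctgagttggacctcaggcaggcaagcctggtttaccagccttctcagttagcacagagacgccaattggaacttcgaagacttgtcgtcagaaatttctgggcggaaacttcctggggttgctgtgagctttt
Tnfsf10, chr3:27316827-27317076, plus strand: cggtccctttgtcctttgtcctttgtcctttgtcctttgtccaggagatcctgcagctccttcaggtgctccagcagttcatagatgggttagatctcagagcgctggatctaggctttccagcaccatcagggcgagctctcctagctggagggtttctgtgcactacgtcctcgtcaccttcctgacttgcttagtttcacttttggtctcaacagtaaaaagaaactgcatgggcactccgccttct
Fas, chr19:34290409-34290658, plus strand: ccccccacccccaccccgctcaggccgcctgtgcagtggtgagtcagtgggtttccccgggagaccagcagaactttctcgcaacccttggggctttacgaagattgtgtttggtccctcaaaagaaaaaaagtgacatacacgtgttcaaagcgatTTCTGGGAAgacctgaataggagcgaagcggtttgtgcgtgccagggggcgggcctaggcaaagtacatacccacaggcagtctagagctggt
The motif TTCNNNGAA, searched on both strands, was present in 7.02% of 32851 promoters of the same length. Among the 7 members with a promoter entry it was found in Fas alone, once, starting 93 bases before the gene start. The bases just after the gene start were not found in a transcript for Fas, nor for Cflar, so that distance is uncertain. The interferon-stimulated motif GAAANNGAAA, also searched on both strands, was present in 2.98% of promoters and in none of those 7. Tnfrsf10b had no promoter entry. In the RefSeq gene order of the same build, Cflar and Casp8 lie next to each other on chromosome 1 with 1 gene, Gm39646, between them.

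The libraries held 43920525 to 72081922 estimated counts. One library, replicate B of the anti-CD8 combination, stood apart. Its 10 adipocyte markers summed to 4524 CPM (counts scaled to a common library total), against 30.7 to 141 in the other 19 libraries. Its level of the epithelial adhesion gene Epcam was 218 CPM and that of the desmosome gene Dsp 133 CPM, against at most 0.608 and 0.883 CPM elsewhere, and its mean log2 level over the 12 epithelial markers was 3.76, against 0.07 to 1.90. The CPM sum of these 12, 1634, lay within the 1075 to 2248 of the others, since Krt8 and Krt18, which carry that sum, were lowest in this library (508 and 468 CPM). Its sum of 10 macrophage markers, 1664 CPM, was the lowest, against 2477 to 4706. Skeletal muscle markers varied from 1.46 to 5008 CPM in sum, within as well as between groups (3417 and 1.46 CPM in the APG/PD-1 pair). The labelled epithelial cancer could be checked on the same 12 markers. The simple keratins Krt8 (508 to 981 CPM) and Krt18 (468 to 1258 CPM) were high in every library. By contrast, Krt5 and Krt6a were at 0 in 16 and 15 of 20. The remaining markers were low, with medians from 0.0359 CPM (Krt14) to 4.43 CPM (Cdh1). Within this list only Krt8 and Krt18 thus went with the label, and the check did not settle it. The depletion was visible in Cd8a, the CD8 alpha chain, at 0.121 to 0.381 CPM in the 4 libraries given anti-CD8 and 0.608 to 56.6 CPM in the other 16. The 2 libraries of the APG/CTLA-4 pair were the closest pair, with a coefficient of biological variation of 4.22% against 20.7% to 85.6% in the other groups. Their counts still differed by more than sampling noise (chi-square per degree of freedom 11.01), and they were kept as 2 samples. That excess cannot decide whether they came from separate tumors, because preparing the libraries can add spread as well. For this treatment the paper mentions a single small resected tumor for flow cytometry and immunohistochemistry, and a single small tumor for a western blot. Which tumors gave the 2 RNA libraries was not stated.

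Fasl was the lowest of the 8 genes and the most variable. Fasl, the ligand of Fas, was measured at 0.736 and 0.992 CPM in the control libraries (A, then B), 0.896 and 0.236 in the APG-157 group, 1.09 and 1.75 in the anti-PD-1 group, and 4.35 and 0.569 with anti-CTLA-4. In the 3 pairs of agents, Fasl was at 3.17 and 1.17 CPM with the APG/PD-1 pair, 2.38 and 2.50 with the APG/CTLA-4 pair, and 5.07 and 6.55 with the PD-1/CTLA-4 pair. It was at 5.40 and 0.911 CPM with the triple combination, 0.341 and 0.591 with anti-CD8, and 0.564 and 1.23 with the anti-CD8 combination. The highest library was PD-1/CTLA-4 pair B and the lowest APG-157 B, 27.7-fold apart, and within the anti-CTLA-4 and triple groups the A library was far above the controls while the B library was not above both of them. These levels rested on 14 to 378 estimated counts a library.

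Tnfsf10, which encodes TRAIL, varied less. Tnfsf10 was at 6.43 and 6.20 CPM in the controls, 6.85 and 2.26 in the APG-157 group, 8.44 and 8.55 in the anti-PD-1 group, and 13.1 and 2.93 with anti-CTLA-4. It was at 15.8 and 9.20 CPM with the APG/PD-1 pair, 14.9 and 14.8 with the APG/CTLA-4 pair, and 14.5 and 25.6 with the PD-1/CTLA-4 pair. It was at 22.4 and 3.80 CPM with the triple combination, 5.42 and 3.41 with anti-CD8, and 5.90 and 17.7 with the anti-CD8 combination. Within the anti-CTLA-4 and triple groups Tnfsf10 was again high in A and below the controls in B. The outlying anti-CD8 combination B had the third highest Tnfsf10 level and a Fasl level near the middle.

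The receptor Fas ranged 2.70-fold, from 5.98 CPM in anti-CD8 A to 16.2 CPM in PD-1/CTLA-4 pair B. Fas was at 6.499 and 7.76 CPM in the controls, 9.82 and 8.88 with anti-CTLA-4, 11.2 and 11.3 with the APG/CTLA-4 pair, 10.4 and 16.2 with the PD-1/CTLA-4 pair, and 11.7 and 8.07 with the triple combination. All 8 libraries of these 4 groups with anti-CTLA-4 lay above both controls. In these groups taken singly, 2712 (triple combination) to 5642 (APG/CTLA-4 pair) of 19567 genes had both libraries above the same controls. The genes that did so in all 4 groups together were not counted. Without anti-CTLA-4, Fas was between 6.11 and 7.89 CPM in 5 of the 6 treated libraries not given anti-CD8, and at 11.3 CPM in APG/PD-1 pair A.

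The TRAIL receptor Tnfrsf10b was at 35.7 and 39.8 CPM in the controls, 46.1 and 47.5 CPM with the APG/CTLA-4 pair, 31.6 and 31.4 CPM with the PD-1/CTLA-4 pair, and 32.4 and 19.7 CPM with the anti-CD8 combination. It thus did not share the order of its ligand: the group highest in Tnfsf10, the PD-1/CTLA-4 pair, lay below the controls in Tnfrsf10b. That difference was small (log2 change -0.26), and 3974 of 19567 genes had both libraries of this pair below both controls. The initiator Casp8 was between 82.8 and 117 CPM in 19 libraries and at 62.5 CPM in the outlying one. Its inhibitor Cflar had the narrowest range of the 8, 104 to 146 CPM, or 1.40-fold.

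Bid was at 29.1 and 28.8 CPM in the controls, 44.002 and 43.8 CPM with the APG/CTLA-4 pair, where it was highest, and 38.9 and 24.6 CPM with anti-CTLA-4. The necroptosis kinase Ripk3 was at 25.6 and 30.4 CPM in the controls. It was above both in every library of the 7 groups given 1 or more of the 3 agents without anti-CD8 (32.4 to 40.1 CPM). All 7 were set against the same control libraries. In single groups, 1530 (APG-157) to 5642 (APG/CTLA-4 pair) of 19567 genes had both libraries above both controls. The genes that did so in all 7 groups together were not counted, so no share stands beside the joint pattern. With anti-CD8 alone Ripk3 was at 25.7 and 31.3 CPM, which overlapped the controls. The lowest library for Tnfrsf10b, Casp8, Cflar, Bid and Ripk3 alike was the outlying anti-CD8 combination B.

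**Figure D1:**
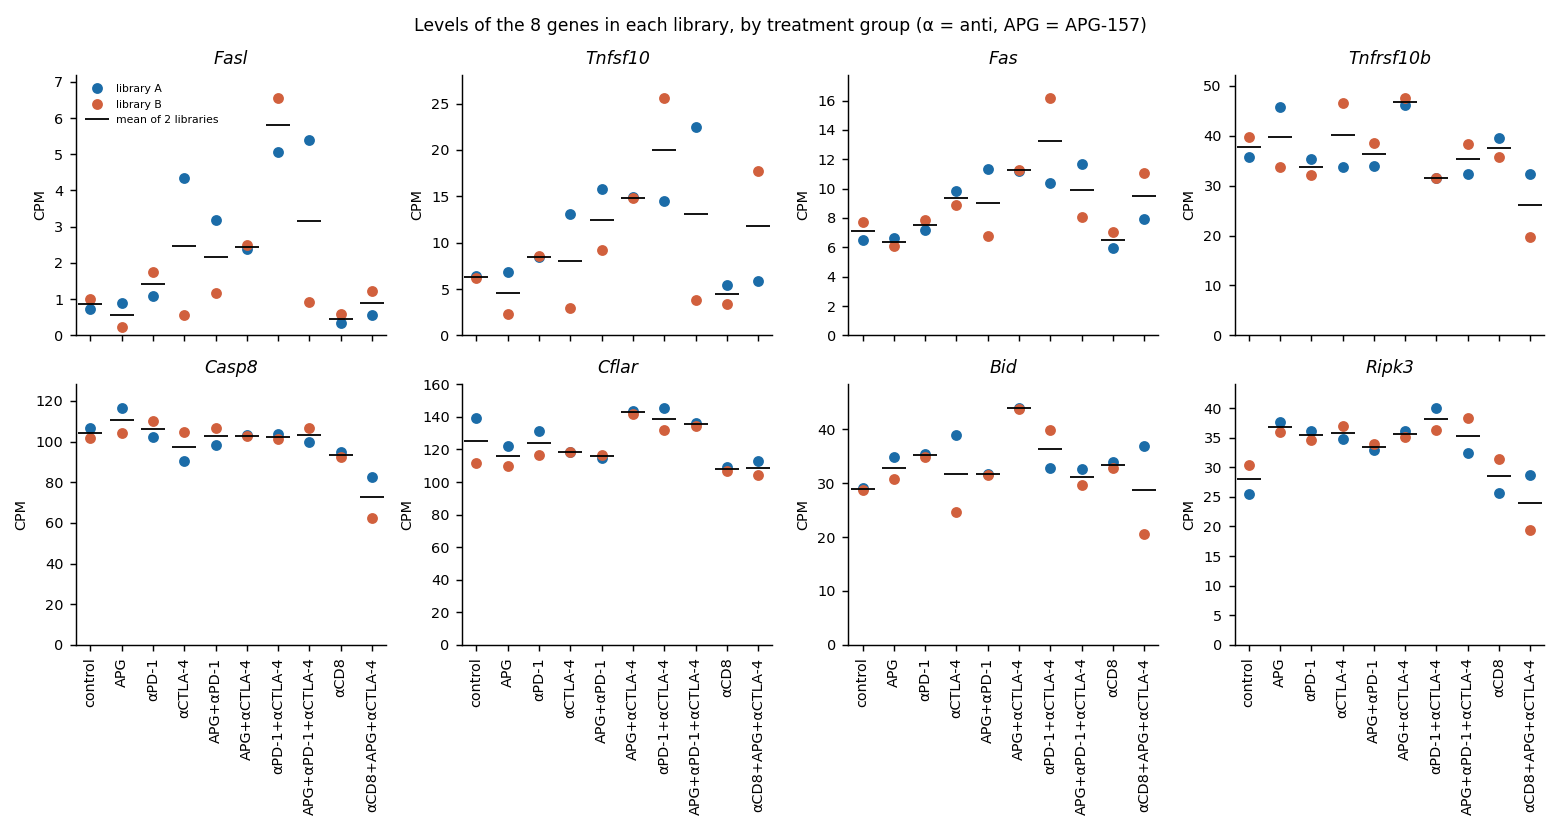
Level of each of the 8 genes (y axis, CPM, from 0) in the A and B library of each of the 10 groups (x axis), with a bar at the mean of 2. Fasl and Tnfsf10 spread widely, with A and B far apart under anti-CTLA-4 and the triple combination, whereas Casp8, Bid and Ripk3 spread less, with their lowest point in the last group.

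Compared per length (median CPM per kilobase of exon, with exon lengths from GENCODE M21, an older release than the one behind the counts), the order of the genes was Casp8 (35.4), Ripk3 (15.1), Cflar (9.34), Bid (9.26), Tnfrsf10b (6.52), Fas (3.89), Tnfsf10 (1.61) and Fasl (0.583). The neighbours Cflar and Bid were nearly equal in that order. By these medians both ligands lay below both receptors, and the receptors below the relay proteins.

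The first comparisons asked whether any treatment changed these genes relative to the control. By edgeR's quasi-likelihood test, adjusted over all 19567 genes, none of the 8 passed in any of the 9 comparisons with the control. The background was as low: 0% of all genes passed in 7 of these comparisons, 0.0204% with the APG/CTLA-4 pair and 0.0102% with the anti-CD8 combination. At an unadjusted p under 0.05, 3 of 8 members passed with the PD-1/CTLA-4 pair (6.04% of all genes), 2 with the APG/CTLA-4 pair (11.1%), 2 with the anti-CD8 combination (19.1%), 1 each with APG-157 (0.761%) and anti-CTLA-4 (6.45%), Ripk3 in both, and none in the other 4 comparisons. DESeq2 called 1 member, Casp8, which was lower with the anti-CD8 combination (0.808% of all genes were called lower).

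The largest of these differences was that of Fasl with the PD-1/CTLA-4 pair, at 5.81 ± 1.04 CPM (SD, n = 2) against 0.864 ± 0.181 CPM in the controls. The log2 change was 2.75 ± 0.99 (SE), with an adjusted p of 0.73 by edgeR. In the same comparison the log2 change was 1.66 ± 0.84 for Tnfsf10 and 0.90 ± 0.28 for Fas (adjusted p = 0.865 and 0.73, edgeR). Both treated libraries lay above both controls for 5 members (Fasl, Tnfsf10, Fas, Bid and Ripk3), as they did for 18.8% of all genes. The median log2 change was 0.39 over the 8 members and -0.04 over all genes.

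With the APG/CTLA-4 pair, 7 of 8 members, all but Casp8, had both treated libraries above both controls, against 28.8% of all genes. The log2 changes were 1.498 ± 0.95 for Fasl, 1.24 ± 0.83 for Tnfsf10, 0.66 ± 0.28 for Fas and 0.60 ± 0.23 for Bid (SE), and none passed (adjusted p from 0.406 to 0.581, edgeR). The median was 0.47 over the 8 members and -0.03 over all genes. These 2 comparisons share the control libraries. In fits on the 2 compared groups alone, the spread of the other groups does not enter. Fasl and Tnfsf10 then passed in both comparisons and Bid with the APG/CTLA-4 pair. Of all genes, 4.21% were called with that pair and 1.81% with the PD-1/CTLA-4 pair. The APG/CTLA-4 pair had the smallest spread between A and B of the 10 groups (4.22%), which may be technical. The part of that small spread in these calls was not tested.

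Of 44 other genes of the death pathways none passed in the 9 comparisons by edgeR. DESeq2 called 2 of them higher with the APG/CTLA-4 pair, beside 2.31% of all genes in either direction. With the PD-1/CTLA-4 pair it called 1 higher, beside 0.539%. Tnf, the founding ligand of the family, was at 3.76 ± 1.03 CPM (SD, n = 2) in the controls and 10.7 ± 0.128 CPM with the APG/CTLA-4 pair. The 3 genes with the smallest p for that pair were Tnf (1.51 ± 0.33), Bcl2l1 (0.51 ± 0.13), which encodes the survival protein Bcl-xL, and Mlkl (0.50 ± 0.19), which encodes the membrane-permeabilizing protein of necroptosis, with adjusted p from 0.17 to 0.404 by edgeR. For the PD-1/CTLA-4 pair they were Tnf (1.22 ± 0.33), Bcl2l1 (0.40 ± 0.13) and the decoy receptor gene Tnfrsf23 (1.26 ± 0.42), each with an adjusted p of 0.73 by edgeR.

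The 8 groups without anti-CD8 form a complete design of the 3 agents, so that each agent can be compared over 8 libraries with it and 8 without. The main effect of APG-157 was between -0.22 and 0.14 on the log2 scale for the 8 members, with none passing and 0% of all genes called. The main effect of anti-PD-1 was 1.07 ± 0.47 for Fasl and -0.26 ± 0.11 for Tnfrsf10b, again with no member and 0% of all genes called (adjusted p = 0.561 for both, edgeR). The main effect of anti-CTLA-4 was 1.55 ± 0.48 for Fasl, 0.54 ± 0.14 for Fas and 0.84 ± 0.41 for Tnfsf10.

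By edgeR no member passed for anti-CTLA-4 (adjusted p = 0.228 for Fasl, 0.139 for Fas and 0.542 for Tnfsf10), where 0.25% of all genes were called and 0.158% were called higher. DESeq2 called Fasl and Fas higher, beside 2.24% of all genes. Casp8 and Tnfrsf10b had main effects of -0.06 ± 0.06 and 0.05 ± 0.11. Of the 44 pathway genes, edgeR called 2 for anti-CTLA-4, both higher: Tnf (0.92 ± 0.16, adjusted p = 0.0454) and Bcl2l1 (0.37 ± 0.06, adjusted p = 0.037). The prosurvival Mcl1 was next (0.29 ± 0.07, adjusted p = 0.112, edgeR). None of the 44 passed for APG-157 or anti-PD-1. No member passed in the 4 interactions, that is those of APG-157 and anti-CTLA-4, of APG-157 and anti-PD-1, and of both antibodies (0% of all genes called), and that of anti-CD8 and the APG/CTLA-4 pair (0.0102%). At an unadjusted p under 0.05 there were 3 members in the last of these (Tnfrsf10b, Bid and Ripk3), 1 in the interaction of APG-157 and anti-PD-1 (Bid) and none in the others. The 4 interactions, in the order given, had 2.94%, 7.61%, 2% and 27.7% of all genes at that level.

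**Figure D2:**
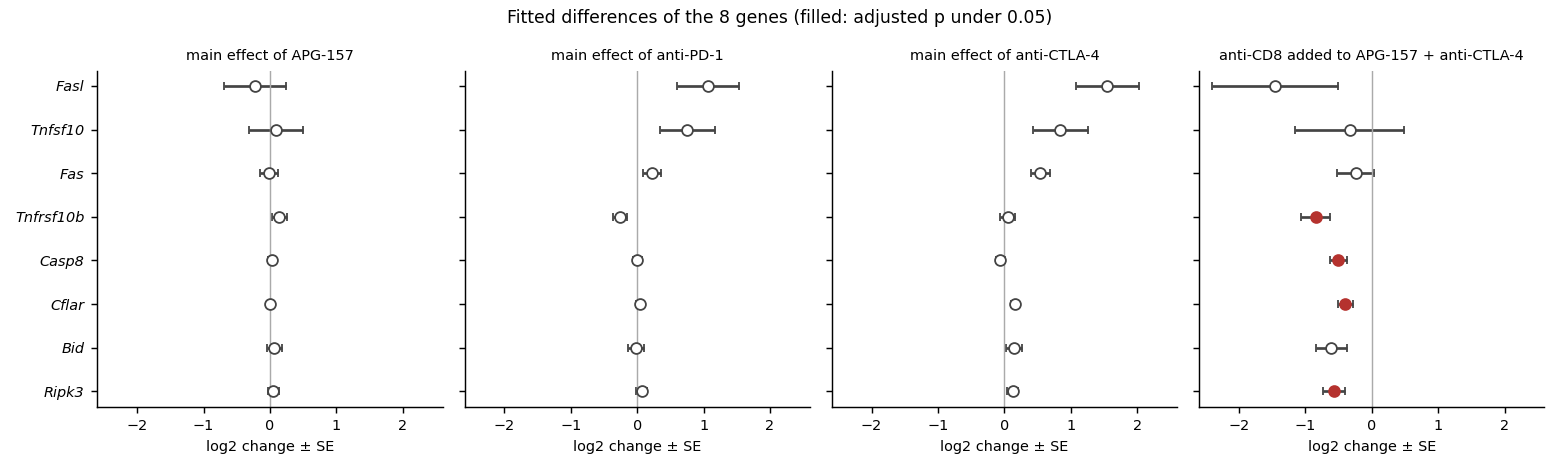
Fitted log2 difference of each gene (x axis, point and SE bar) for the main effects of the 3 agents and for anti-CD8 added to the APG/CTLA-4 pair. Filled points, an adjusted p under 0.05 by edgeR, occur only in the last panel, for Tnfrsf10b, Casp8, Cflar and Ripk3, and those 4 calls were lost without anti-CD8 combination B and likewise without either library of the pair.

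Adding anti-CD8 to the APG/CTLA-4 pair asked what the depletion did to these genes under the combination. Whether both groups came from the same experiment was not stated. Tnfrsf10b (-0.84 ± 0.22), Ripk3 (-0.57 ± 0.17), Casp8 (-0.50 ± 0.13) and Cflar (-0.40 ± 0.12) were lower, with adjusted p from 0.0291 to 0.0362 by edgeR. That was 4 of 8 members, where 8.18% of all genes were called lower by edgeR and 12.3% by DESeq2, which also called 4. The median change was -0.54 over the 8 members and 0.09 over all genes. Fasl was at 2.38 and 2.50 CPM without and at 0.564 and 1.23 CPM with anti-CD8. The difference of -1.45 ± 0.95 for Fasl did not pass (adjusted p = 0.273, edgeR). Among the 44 pathway genes, 4 were called lower, or 9.09%, near the 8.18% of all genes given above. These were Tnf (-1.81 ± 0.34), the decoy receptor gene Tnfrsf22 (-1.08 ± 0.29), the kinase gene Ripk1 (-0.74 ± 0.21) and Mlkl (-0.72 ± 0.19), with adjusted p from 0.0252 to 0.033 by edgeR. Whether these calls held when single libraries were left out was not counted.

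No member was called without the library that stood apart, anti-CD8 combination B, and 0.0409% of all genes were. The log2 differences were then -0.53 ± 0.21 for Tnfrsf10b, -0.34 ± 0.14 for Cflar, -0.32 ± 0.15 for Ripk3 and -0.31 ± 0.12 for Casp8 (SE, adjusted p from 0.281 to 0.348 by edgeR, with the remaining library assumed to vary like the other groups), still below 0. Its adipocyte sum, Epcam and Dsp were the highest and its macrophage sum the lowest of the series, as given above, and their part in the lower levels of the 4 genes was not tested. No member was called either without library A or library B of the APG/CTLA-4 pair, where 0.0102% and 0.0153% of all genes were.

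The relation of the 8 genes to the level of cytotoxic cells was measured with a score, the mean of log2(CPM + 0.1) over 15 genes of cytotoxic T cells and natural killer cells (Cd8a, Cd8b1, Gzma, Gzmb, Gzmk, Prf1, Nkg7, Klrd1, Klrk1, Klrc1, Ncr1, Klrb1c, Ctsw, Ccl5 and Eomes), which holds none of the 8. The score ranged from 0.50 in anti-CD8 A to 4.28 in PD-1/CTLA-4 pair B. Gzmb, encoding granzyme B, ranged from 3.07 to 82.7 CPM, Prf1, encoding perforin, from 2.297 to 86.6 CPM, and Ncr1, a natural killer cell receptor gene, from 1.44 to 8.88 CPM.

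Fasl, Tnfsf10 and Fas rose with the cytotoxic score. The log2 change per unit of the score was 1.08 ± 0.06 (SE) for Fasl, 0.63 ± 0.11 for Tnfsf10 and 0.27 ± 0.05 for Fas (adjusted p = 3.1e-10, 5.2e-04 and 4.0e-04 by edgeR over 20 libraries). Thus 3 of 8 members passed, all higher, where 5.83% of all genes were called higher and 1.2% lower. The slope was 0.08 ± 0.03 for Cflar, 0.09 ± 0.04 for Bid, 0.08 ± 0.04 for Ripk3, 0.01 ± 0.04 for Casp8 and -0.03 ± 0.05 for Tnfrsf10b, and none of these passed by edgeR (adjusted p from 0.0906 to 0.906). DESeq2 also called Cflar (7.01% of all genes were called higher). Without the outlying library Fasl, Tnfsf10 and Fas passed, beside 12.2% of all genes in either direction. The median slope was 0.08 over the 8 members and -0.01 over all genes. Markers of other cells moved with the score too, the 10 T cell genes with r = 0.94 and the 10 macrophage genes with r = 0.49 over the 20 libraries, and their part in these slopes was not tested.

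Over the 20 libraries Pearson's r with the score was 0.98 for Fasl (Spearman's rho 0.96), 0.81 for Tnfsf10 (rho 0.80), 0.81 for Fas (rho 0.78), 0.59 for Cflar (rho 0.62), 0.42 for Bid (rho 0.40), 0.41 for Ripk3 (rho 0.39), 0.11 for Casp8 (rho -0.03) and -0.11 for Tnfrsf10b (rho -0.30). The permutation p for r was 1e-05 for Fasl, the smallest that 100000 permutations can give, 2e-05 for Tnfsf10 and Fas, 0.00765 for Cflar, and from 0.0635 to 0.666 for the other 4. For rho it was 1e-05, 7e-05, 9e-05 and 0.00391 for these 4 genes in turn and from 0.0859 to 0.911 for the others. These were 8 two-sided relations, and the adjusted values over all genes are those of the slopes. The permutation p count each of the 20 libraries as separate, although A and B share a treatment, and may therefore be too small. Without the 2 libraries farthest from the median score, both of the PD-1/CTLA-4 pair, r was 0.97 for Fasl, 0.78 for Tnfsf10, 0.77 for Fas and 0.49 for Cflar.

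The scores had their largest gap, 0.68, between 2.41 and 3.09, with 13 libraries below it and 7 above. Fasl followed the score on both sides of the gap, with r = 0.89 below (permutation p = 7e-05) and 0.98 above (permutation p = 0.00057). Tnfsf10 had r = 0.51 below and 0.47 above, and Fas 0.39 and 0.26, and none of these r passed a permutation test (p from 0.0772 to 0.701), although rho for Tnfsf10 below the gap did (0.60, permutation p = 0.0316). Their relation was thus not held by r within either set of libraries. In the A libraries alone r was 0.997 for Fasl, 0.94 for Tnfsf10 and 0.88 for Fas, and in the B libraries alone 0.96, 0.80 and 0.83.

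**Figure D3:**
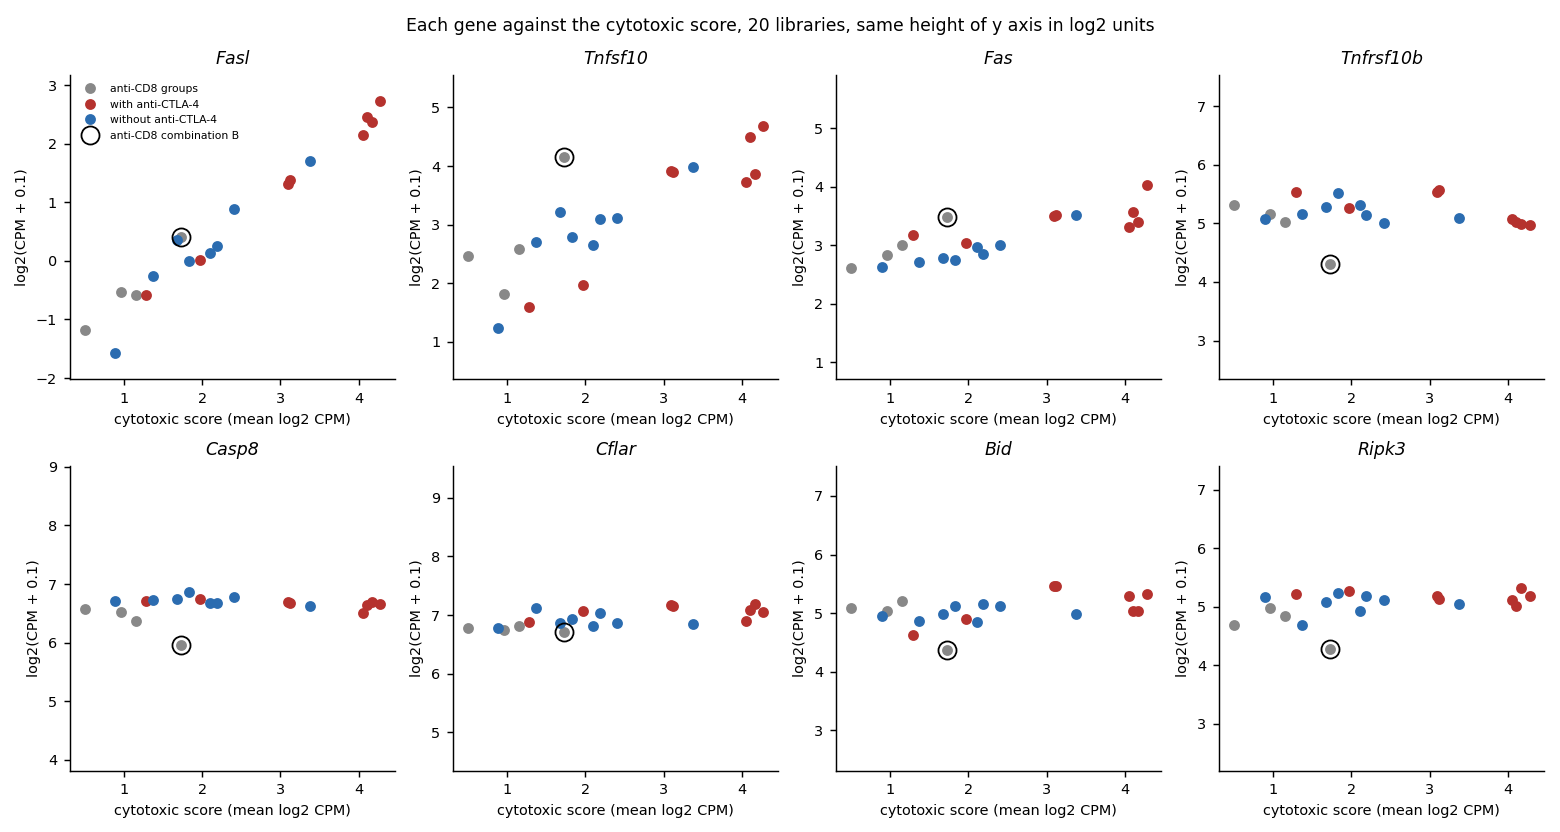
Level of each gene (y axis, log2(CPM + 0.1), the same height in log2 units in every panel) against the cytotoxic score (x axis, mean log2 CPM) in the 20 libraries, colored by treatment class, with anti-CD8 combination B circled. Fasl lies close to a line over the whole range (r = 0.98), Tnfsf10 and Fas rise with more scatter, and Casp8, Cflar, Bid, Ripk3 and Tnfrsf10b are nearly flat.

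The same relation was asked within groups, where only the difference between the A and B library of a treatment counts. Fasl changed by 1.12 ± 0.13 and Tnfsf10 by 0.87 ± 0.17 per unit of the score (adjusted p = 5.1e-04 and 0.0176, edgeR), beside 1.81% of all genes called higher. DESeq2 also called 2 members, beside 4.81%. Fas had a slope of 0.21 ± 0.08 that did not pass (adjusted p = 0.245, edgeR). In all 10 groups the library with the higher score also had more Fasl, and likewise more Fas, and this held for Tnfsf10 in 7 of 10 groups, the exceptions being the control, the APG/CTLA-4 pair and anti-CD8. The library with the higher score had less Casp8 in 8 of 10 groups, less Tnfrsf10b, Cflar and Ripk3 in 7 of 10, and less Bid in 5 of 10. These directions were not counted for all genes, so the shares to set beside them are missing. In the APG/CTLA-4 pair the scores of A and B were nearly equal (3.09 and 3.12). The call for Tnfsf10 was lost without either anti-CTLA-4 library or either library of the triple combination, the 2 groups whose A and B libraries differed most in the score.

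Of the 44 other pathway genes, 10 were called higher with the cytotoxic score by edgeR and 1 lower, beside the 5.83% and 1.2% of all genes given above. Among the ligands and receptors those that rose were Lta, encoding lymphotoxin alpha (0.73 ± 0.17 per unit), Tnf (0.39 ± 0.08) and the TNF receptor gene Tnfrsf1a (0.11 ± 0.03). The genes of lytic death that rose were Zbp1 (0.65 ± 0.06), a nucleic acid sensor that engages Ripk3, the pore-forming Gsdmd (0.19 ± 0.03) and Mlkl (0.15 ± 0.04). The Bcl-2 family contributed the proapoptotic Pmaip1 (0.27 ± 0.07) and the prosurvival Mcl1 (0.13 ± 0.03), Bcl2l1 (0.11 ± 0.03) and Bcl2 (0.08 ± 0.02). Within groups Zbp1 (0.76 ± 0.09) and Lta (1.13 ± 0.22) passed, and Pmaip1 was next (0.31 ± 0.09, adjusted p = 0.121, edgeR). The median slope over the 44 genes was 0.04, against -0.01 over all genes.

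**Figure D4:**
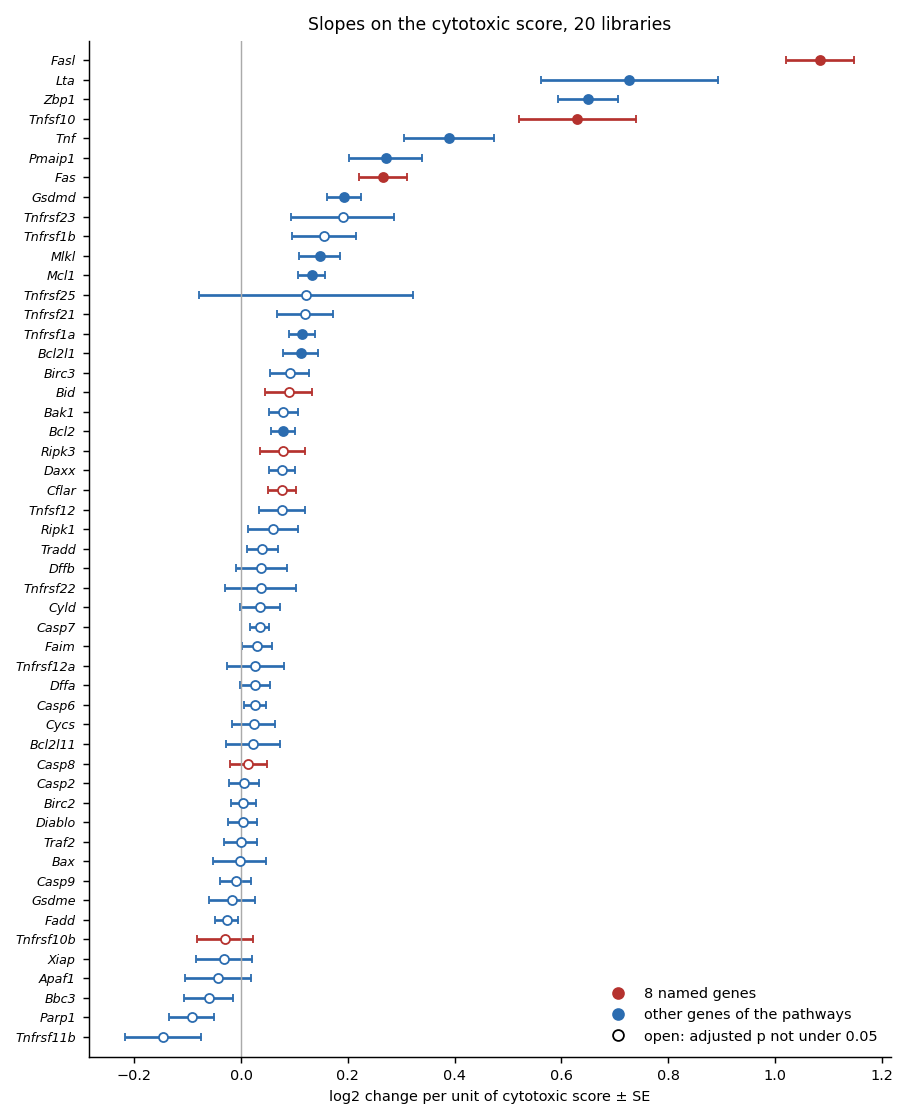
Change of each of the 8 genes (red) and of the other pathway genes (blue, all but 1 of the 44) per unit of the cytotoxic score (x axis, log2, point and SE bar), ordered by size. Fasl (1.08) stands at the top, and filled points mark an adjusted p under 0.05 by edgeR.

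The genes whose levels were most like those of each member were looked for among all tested genes with a symbol, by Pearson's r of log2(CPM + 0.1) over 20 libraries. For Fasl they were Klrc1, Ms4a4b and Nkg7 (r = 0.98 each), of which Klrc1 and Nkg7 belong to the cytotoxic score. For Tnfsf10 they were Fgl2, Cfb and Trim12c (0.96, 0.96 and 0.95), and for Fas Fam241a, Ly6a and Il15ra (0.92, 0.90 and 0.90). For Tnfrsf10b they were Tfdp1, Efr3a and Dnaja2, each at 0.96, and at 0.92 without the outlying library.

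Among the relay proteins, Cflar was nearest to Lpin2, Mospd2 and Ggta1 (0.87, 0.86 and 0.86) and Bid to Lpcat1, Actr3 and Ttc7 (0.90, 0.88 and 0.87). Casp8 was nearest to Sema7a, Myl12b and Dgkz (0.92, 0.90 and 0.89), and Ripk3 to Klc1, Plin2 and Timp1 (0.88, 0.86 and 0.85). Leaving out anti-CD8 combination B lowered r to between 0.62 and 0.74 for the neighbours of Casp8 and between 0.70 and 0.73 for those of Ripk3.

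Interferon gamma is the main cytokine of activated cytotoxic cells, and a score over 16 of its response genes was compared with the members as well. That score moved with the cytotoxic score (r = 0.93), and the 2 cannot be told apart here. Per unit of the interferon gamma score Fasl changed by 1.07 ± 0.09, Tnfsf10 by 0.77 ± 0.08 and Fas by 0.27 ± 0.04, all passing (edgeR, adjusted p at most 2.6e-04), beside 7.93% of all genes. Within groups Fasl and Tnfsf10 passed, beside 2.69% of all genes. Without the outlying library Cflar (0.08 ± 0.02, adjusted p = 0.0442) and Bid (0.11 ± 0.03, adjusted p = 0.0336) passed as well by edgeR, beside 12.4% of all genes, and within groups Bid joined Fasl and Tnfsf10 (0.16 ± 0.04, adjusted p = 0.0385, edgeR), beside 4.35%. For Tnfsf10 r was 0.93 and rho 0.91 with this score (permutation p = 1e-05 for both, the smallest they can give), and r was 0.90 without the 2 farthest libraries. The r of 0.81 with the cytotoxic score was lower, a difference that was not tested.

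Fas and Tnfrsf10b are both known targets of p53, and a score over 12 other p53 targets, among them Cdkn1a and Mdm2, was therefore compared with them. Tnfrsf10b followed that score, with r = 0.91 and rho = 0.94 over 20 libraries (permutation p = 1e-05 for both, the smallest they can give), and r = 0.88 without the outlying library and likewise without the 2 farthest libraries. Its slope was 1.31 ± 0.15 (adjusted p = 4.9e-06, edgeR), beside 37.8% of all genes called, and 1.09 ± 0.15 without that library (adjusted p = 4.1e-04, edgeR), beside 14.8%. Casp8 was called too (0.53 ± 0.19, adjusted p = 0.0297, edgeR), but not without that library (0.17 ± 0.16, adjusted p = 0.534, edgeR). Within groups the slope of Tnfrsf10b passed with all libraries (adjusted p = 0.0319, edgeR, 2.33% of all genes called) and did not without the outlying one (adjusted p = 0.0655, edgeR, 0% called). The outlying library had the lowest p53 target score, 5.58 against 5.79 to 6.33 in the others. Other marker scores moved with Tnfrsf10b too. Among them was the epithelial score, whose markers other than Krt8 and Krt18 had low medians, as given above. With the epithelial score r was -0.79 and rho -0.71 (permutation p = 0.00017 and 0.00073), and r was -0.49 without the outlying library (permutation p = 0.0238). With the macrophage score r was 0.19 over all libraries and -0.73 without the outlying one (permutation p = 0.381 and 0.00065), and over 20 libraries r was -0.73 with the B cell and -0.65 with the endothelial score. Their part in the relation to the p53 targets was not tested. The relation of Fas to the p53 target score did not pass (r = -0.30, rho = -0.23, permutation p = 0.199 and 0.325).

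**Figure D5:**
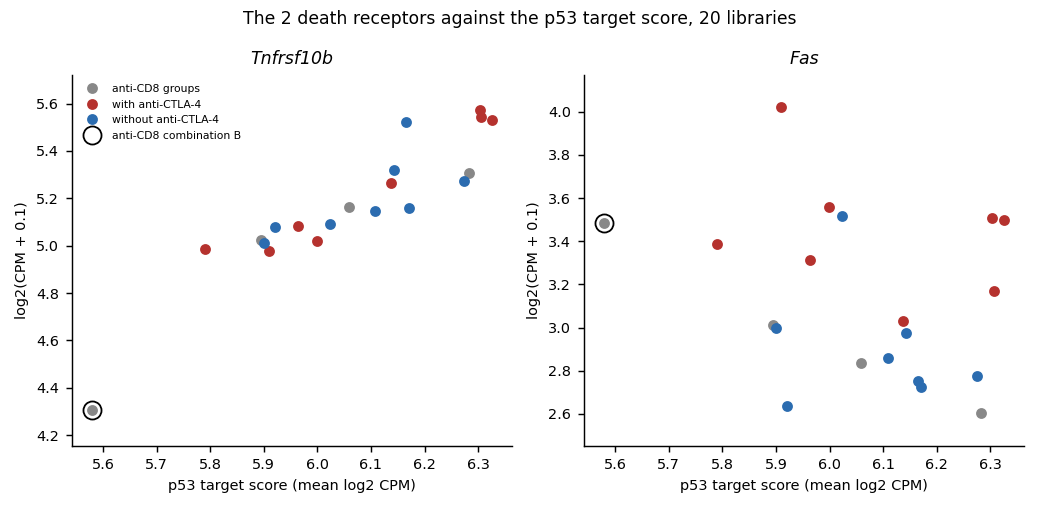
Levels of the receptor genes Tnfrsf10b and Fas (y axes, log2(CPM + 0.1), each with its own range) against the p53 target score (x axis, mean log2 CPM) in the 20 libraries. Tnfrsf10b rises with the score (r = 0.91), also without the circled anti-CD8 combination B (r = 0.88), whereas Fas does not (r = -0.30).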

How the data were processed

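RNA of 20 SCCVII tumor samples was measured by mRNA sequencing. Per the labels and the study's methods, the authors trimmed reads with Trimmomatic 0.39, quantified transcripts with Salmon (1.5.0 in the submitters' processing notes, a later patch release in the methods) on build GRCm39 and summed them to genes. The deposited expected counts are these estimates, not normalized, and the deposited normalized table was not used. Here the expected counts were rounded, scaled by TMM and filtered with a minimum count of 10 and a total of 15. All 20 libraries were fitted with edgeR 4.0.16 (R 4.3.3), with 10 residual degrees of freedom, and p-values were adjusted by Benjamini-Hochberg over all genes with a threshold of 0.05 and no fold minimum. Levels are CPM, logged with 0.1 added. The symbols of 51484 of 54309 IDs were matched.

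The comparisons were 9 with the control, 3 main effects, 4 interactions, anti-CD8 added to the APG/CTLA-4 pair, and slopes on the cytotoxic score without and with group terms. Alternatives were DESeq2 1.42.0, median-ratio factors, other filters, a fold minimum of 2 on the log2 scale, a replicate block, 2 groups only, other scores, summed libraries and leaving out each library, the last 2 with the genes tested held fixed. Named were all 8 members, the pathway genes called (where fewer than 3 were, those with the smallest p up to 3, given here for the 2 pairs with anti-CTLA-4, its main effect and the slopes), the 3 genes nearest to each member, and Cd8a, Gzmb, Prf1 and Ncr1. The epithelial, adipocyte and macrophage markers were named after their values were seen, and the interferon gamma and p53 scores and the split at the largest gap were added after seeing the data. One of the 44 pathway genes is not reported here by name, although counts and medians over the list include it. The members and lists were chosen with earlier results of these data known. The scripts were tested on simulated counts.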

Additional observations from a re-analysis of the deposited data

How the results depend on the processing

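With 2 libraries a group, single comparisons with the control had little precision. The replicate block, with the letters A and B as a term, gave 0 member calls against the control, 4 for anti-CD8 added to the APG/CTLA-4 pair, 3 for the cytotoxic slope and 2 within groups, as without it. The A minus B differences had no common direction over the groups. Of 45 pairs of groups, 14 had a correlation of these differences over 0.1, with a median of 0.012 and a range of -0.51 to 0.79. The labels number the A libraries before the B libraries, and whether the letters mark a batch was not tested.

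Calls in the 9 comparisons with the control were 0, against 1 by DESeq2, 5 with the 2 compared groups only, and 0 to 3 leaving out 1 library (3, namely Tnfrsf10b, Casp8 and Ripk3, without anti-CD8 combination A, beside 27.6% of all genes). Calls in the 3 main effects were 0, against 2 by DESeq2. Calls in the 4 interactions were 0, against 0 to 4 leaving out 1 library (4, namely Tnfrsf10b, Casp8, Bid and Ripk3, without anti-CD8 combination A, beside 28.6% of all genes). The 4 calls for anti-CD8 added to the APG/CTLA-4 pair became 1 with no low-count filter, 0 with a fold minimum of 2 on the log2 scale, 0 with both libraries of that pair summed, and 0 to 5 leaving out 1 library (5, all but the ligands and Fas, without anti-CD8 combination A, beside 39.2% of all genes). The 3 calls for the cytotoxic slope were 3 or 4 under every alternative run. The 2 calls within groups became 1, Fasl, with the natural killer score, and 1 to 2 leaving out 1 library. Except where the alternative removes samples or genes, the cause was not tested.

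Of 1296 log2 changes and slopes of single genes under alternatives, 13 changed sign, 30 were no longer called and 13 became called. Those that changed sign were near 0 but for Tnfsf10. Casp8 with the PD-1/CTLA-4 pair was at 0.000512 by DESeq2, 0.000613 with median-ratio factors, 0.018 with a filter at a mean of 1 CPM and -0.055 to 0.021 leaving out 1 library (the highest without control A). Casp8 with the APG/CTLA-4 pair was at -0.051 to 0.012 leaving out 1 library (the highest without control A). Cflar with the PD-1/CTLA-4 pair was at -0.0015 to 0.32 (the lowest without control B), and its slope within groups at 0.0034 with the filter at 1 CPM and at -0.026 to 0.0019 leaving out 1 library. The main effect of anti-CTLA-4 on Tnfrsf10b was -0.016 to 0.099, below 0 without APG-157 B (-0.00483) or anti-CTLA-4 B. The slope of Bid within groups was -0.0011 to 0.14, below 0 without either anti-CTLA-4 library. Tnfsf10 with anti-CD8 added was at -1.33 to 0.25, the highest without anti-CD8 combination A and the lowest without B.

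The correlations of Fasl with the cytotoxic score passed under all 10 alternatives (r from 0.87 to 0.997). Below the largest gap r was 0.51 for Tnfsf10, 0.39 for Fas, 0.39 for Cflar and -0.028 for Bid, and above it 0.47 for Tnfsf10, 0.26 for Fas, -0.89 for Tnfrsf10b, -0.27 for Casp8, -0.098 for Cflar and -0.45 for Bid. In the A libraries r was 0.46 for Cflar and 0.68 for Ripk3, and in the B libraries 0.0043 for Tnfrsf10b. Without the 2 farthest libraries it was 0.010 for Tnfrsf10b. For Ripk3 it was 0.46 without anti-CD8 combination B, 0.44 with Cd8a and Cd8b1 as the score and 0.45 with the natural killer score.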
